A study of Homo sapiens with 12 samples.

Results

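The chaperone machinery of K-562 cells, a human erythroleukemia line, was followed through 75 protein-coding genes: heat shock proteins of the HSP90, HSP70, HSP110 and small HSP families, the J-domain cochaperones, the BAG proteins, the chaperonins and the heat shock factors HSF1 and HSF2. They were chosen by gene name. Of the 60658 rows of the expression table, 92 carried a name of these families (HSP followed by a digit or by A to E or H, but not HSPBAP1, DNAJA, DNAJB, DNAJC, BAG1 to BAG6, CCT2 to CCT8, TCP1, HSF1 and HSF2). A row was kept when its value was at least 1 FPKM (mapped fragments of a gene, scaled to the length of its transcript and to the total of the library) in at least 3 of the 12 libraries. This left 75 members of the 13393 genes tested, and 17 rows fell below the threshold. Of the 75, 69 were at 1 FPKM or more in all 12 libraries. The other 6, HSPA6, HSPB3, DNAJA4, DNAJB7, DNAJC15 and DNAJC27, were so in only some libraries and can have passed through the group in which they were high.

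RNA was sequenced from 4 groups of 3 libraries, all from K-562 cultures selected with G418 to carry a stable insert, 24 hours after transfection with an siRNA. The D152V rescue cells expressed 3xTY-D152V, a tagged MYB with a substitution in its DNA-binding domain, and received si2992, the siRNA against MYB. The wild-type rescue cells expressed 3xTY-hcM, tagged wild-type MYB, and received the same siRNA. The knockdown cells carried the 3xTY1 tag alone and received that siRNA. The control cells also carried the tag alone and received a siGENOME non-targeting siRNA. Each rescue is its own stable line, so its transgene and its line cannot be told apart, and the labels do not say whether a line is 1 clone. The labels call the replicates separate experiments, and the p-values measure the spread between those libraries. In bulk RNA, a change in the share of cells and a change per cell cannot be told apart. MYB itself was at 86.6, 86.2 and 100.4 FPKM in D152V rescue, 132, 125 and 115 FPKM in wild-type rescue, 26.1, 32.9 and 31.5 FPKM in knockdown, and 124, 132 and 104 FPKM in control. Every D152V rescue value lay below every wild-type rescue value. Between the rescue lines the level of MYB RNA therefore cannot be told apart from the substitution or the line.

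Chaperones bind proteins that are unfolded or only partly folded. HSP70 proteins cycle on and off their clients with ATP; J-domain proteins deliver clients to them and start ATP hydrolysis, and nucleotide exchange factors such as the BAG proteins and HSP110 let the client go. HSP90 finishes the folding of kinases and steroid receptors, while the ring-shaped chaperonins enclose actin and tubulin in the cytosol and matrix proteins in mitochondria. Under stress HSF1 forms trimers that bind repeats of the sequence nGAAn, the heat shock element, in front of the inducible chaperone genes. A different element serves the chaperones of the endoplasmic reticulum (ER). In red cell precursors HSP70 is known to shield the transcription factor GATA1 from caspase cleavage.

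A single library, knockdown replicate 1, stood apart. The FPKM values summed to 1215578 in knockdown replicate 1 and to between 672616 and 798362 in the other 11. Over the tested genes, that library correlated at r = 0.9303 and 0.929 with the other knockdown libraries, whereas the lowest r in any other pair of replicates was 0.9828. Ribosomal protein genes made up 23.2% of its total, against 16.1% and 16.9% in the other knockdown libraries and 10.2% to 14.3% elsewhere. Since the fit shares 1 estimate of spread, that library bears on every comparison, and counts of called members are given with and without it, an alternative that the earlier results had pointed to. All 8 erythroid and progenitor markers of K-562 cells were at 1 FPKM or more in all 12 libraries. Their summed level ran from 2111 to 3628 FPKM in D152V rescue, 885 to 1897 FPKM in wild-type rescue, 1643 to 5218 FPKM in knockdown and 1293 to 2759 FPKM in control, and its part in the member differences was not tested. Of 8 markers of other cell types, MS4A1 was at 0 in all 12 libraries and only EPCAM was at 1 FPKM or more in every one, at 32.1 to 126 FPKM. Their summed level ran from 36.1 to 42.1 FPKM in D152V rescue, 54.6 to 77.3 FPKM in wild-type rescue, 47.7 to 131 FPKM in knockdown and 61.4 to 63.2 FPKM in control.

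The promoters of 7 members are shown because their windows hold the elements by which the cytosolic and the ER chaperone genes are known to be induced. Each window runs from 250 bases before to 50 bases after a RefSeq start site (GRCh38.p14), 5′ to 3′ on the gene's strand. Capitals mark matches to a heat shock element in the first 5 (2 units, GAANNTTC or TTCNNGAA, where N is any base, or 3 units, GAA, TTC and GAA or the reverse complement, each 2 bases apart) and to the ER stress element (CCAAT and CCACG, 9 bases apart, either strand) in the last pair.
HSPA6, chr1:161524290-161524589, plus strand: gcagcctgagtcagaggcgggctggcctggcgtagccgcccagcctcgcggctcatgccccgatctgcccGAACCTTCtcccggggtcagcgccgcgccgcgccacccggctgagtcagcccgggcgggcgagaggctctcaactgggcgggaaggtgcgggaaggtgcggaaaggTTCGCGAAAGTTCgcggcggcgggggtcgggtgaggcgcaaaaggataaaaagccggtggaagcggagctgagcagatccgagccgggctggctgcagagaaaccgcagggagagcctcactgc
HSPA1A, chr6:31815293-31815592, plus strand: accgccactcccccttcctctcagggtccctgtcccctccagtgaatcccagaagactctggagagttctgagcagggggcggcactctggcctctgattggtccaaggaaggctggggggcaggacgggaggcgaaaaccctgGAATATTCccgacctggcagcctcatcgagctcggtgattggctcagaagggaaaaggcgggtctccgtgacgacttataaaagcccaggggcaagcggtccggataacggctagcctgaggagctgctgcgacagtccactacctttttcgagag
HSP90AA1, chr14:102086995-102087294, minus strand: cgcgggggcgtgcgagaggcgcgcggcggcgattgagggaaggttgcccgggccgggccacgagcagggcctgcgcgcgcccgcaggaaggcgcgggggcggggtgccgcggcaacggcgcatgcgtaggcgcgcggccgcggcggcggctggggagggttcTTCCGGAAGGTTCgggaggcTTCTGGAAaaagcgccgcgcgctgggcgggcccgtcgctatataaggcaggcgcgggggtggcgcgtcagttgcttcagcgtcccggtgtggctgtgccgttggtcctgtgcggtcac
DNAJA1, chr9:33025023-33025322, plus strand: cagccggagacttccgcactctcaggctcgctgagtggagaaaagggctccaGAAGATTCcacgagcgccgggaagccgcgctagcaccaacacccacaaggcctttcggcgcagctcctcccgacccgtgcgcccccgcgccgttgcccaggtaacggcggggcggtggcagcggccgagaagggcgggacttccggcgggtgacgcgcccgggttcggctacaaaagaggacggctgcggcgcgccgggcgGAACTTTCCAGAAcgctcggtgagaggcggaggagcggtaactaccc
DNAJB1, chr19:14518348-14518647, minus strand: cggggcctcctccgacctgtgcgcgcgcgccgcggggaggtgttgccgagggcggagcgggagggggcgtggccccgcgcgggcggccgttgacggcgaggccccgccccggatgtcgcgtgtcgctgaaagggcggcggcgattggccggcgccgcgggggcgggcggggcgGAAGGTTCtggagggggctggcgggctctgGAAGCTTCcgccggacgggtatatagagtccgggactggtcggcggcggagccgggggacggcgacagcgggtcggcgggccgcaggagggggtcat
HSPA5, chr9:125241294-125241593, minus strand: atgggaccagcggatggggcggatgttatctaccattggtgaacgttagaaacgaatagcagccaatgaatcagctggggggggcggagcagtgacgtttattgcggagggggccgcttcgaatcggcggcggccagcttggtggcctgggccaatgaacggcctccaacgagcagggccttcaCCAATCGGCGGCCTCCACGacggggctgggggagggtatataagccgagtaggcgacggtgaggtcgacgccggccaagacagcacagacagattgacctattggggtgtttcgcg
HSP90B1, chr12:103930160-103930459, plus strand: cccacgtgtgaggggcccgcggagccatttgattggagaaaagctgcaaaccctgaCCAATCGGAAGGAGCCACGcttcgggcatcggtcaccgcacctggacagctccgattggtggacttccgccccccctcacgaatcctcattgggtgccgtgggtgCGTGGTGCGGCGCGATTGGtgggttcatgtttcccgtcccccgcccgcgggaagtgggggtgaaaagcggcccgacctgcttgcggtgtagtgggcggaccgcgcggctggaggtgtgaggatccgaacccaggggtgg

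Among the 69 members with a RefSeq window, 7 (10.1%) held the 3-unit heat shock element: DNAJA1, DNAJB6, HSP90AA1, HSP90AB1, HSPA6, HSPA8 and HSPD1. The same element stood in 0.608% of the 27305 genes in the table, and in 0.49% of its 35116 windows. The 2-unit forms, which every 3-unit match contains, were found head to head (GAANNTTC) in 18 members (26.1%) and 8.21% of genes, and tail to tail (TTCNNGAA) in 13 members (18.8%) and 9.46% of genes. HSPA5 and HSP90B1 were the only members with the ER stress element, which 0.0916% of genes held. The short core that MYB binds (AACNG, either strand) was in 55 members (79.7%) and in 80.5% of genes, so in this window it did not set the members apart by share. A match is a string of letters in this window and says nothing of binding.

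Several inducible chaperones of the cytosol were lower in the D152V rescue line than in the wild-type rescue line. Together the 75 members made up 2.18% ± 0.0835 of the FPKM total in D152V rescue, 2.54% ± 0.138 in wild-type rescue, 2.02% ± 0.117 in knockdown and 2.27% ± 0.221 in control (SD, n = 3 each). In D152V rescue against wild-type rescue, 13 members fell and 1 rose at an adjusted p under 0.05 (limma, Benjamini-Hochberg over all tested genes), where 6.19% of all tested genes fell and 5.96% rose. Members thus fell at a share of 17.3% and rose at 1.33%. The fitted difference was below 0 for 60 of the 75, with a median of -0.18 on the log2 scale against -0.03 over all tested genes. The genes that fell were the inducible HSP70 genes HSPA1A, HSPA1B and HSPA6, HSP90AA1, the HSP110 gene HSPH1, 7 J-domain genes (DNAJA1, DNAJB1, DNAJB4, DNAJB9, DNAJC10, DNAJC11 and DNAJC15) and BAG3. Only DNAJC12 rose. The 3-unit heat shock element was in the windows of 3 of the 13 genes that fell (HSP90AA1 and HSPA6, before the start site, and DNAJA1, just after it) and in those of 4 members that did not pass here (DNAJB6, HSP90AB1, HSPA8 and HSPD1). Without knockdown replicate 1 the counts were 33 lower and 1 higher, against 17.8% and 13.6% of all tested genes.

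The other comparisons addressed what changed on loss of MYB and what came back with either form of it. In wild-type rescue against knockdown, 22 members rose and 5 fell (29.3% and 6.67%), where 20.6% of tested genes rose and 16.9% fell. In D152V rescue against knockdown 3 rose and 5 fell, with 13% and 12% of all genes. Knockdown against control gave 2 higher and 7 lower members, with 3.94% of genes higher and 7.38% lower. Wild-type rescue against control gave 6 higher and 2 lower, with 5.04% and 4.58% of genes. D152V rescue against control gave 0 higher (2 at an unadjusted p under 0.05) and 4 lower (11 unadjusted), with 4.61% and 4.94% of genes. These comparisons share libraries, so their counts are not independent. Leaving out knockdown replicate 1 changed them to 35 higher and 6 lower for wild-type rescue against knockdown (25.3% and 19.9% of genes), 9 and 11 for D152V rescue against knockdown (16.6% and 15.9%), 1 and 18 for knockdown against control (7.26% and 12.9%), 26 and 5 for wild-type rescue against control (13.8% and 15.9%), and 2 and 17 for D152V rescue against control (11.2% and 16.4%). With only the 6 libraries of knockdown and control, no member passed between them (3 higher and 9 lower at an unadjusted p under 0.05). Of all tested genes only 0.119% passed in that fit.

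**Figure D1:**
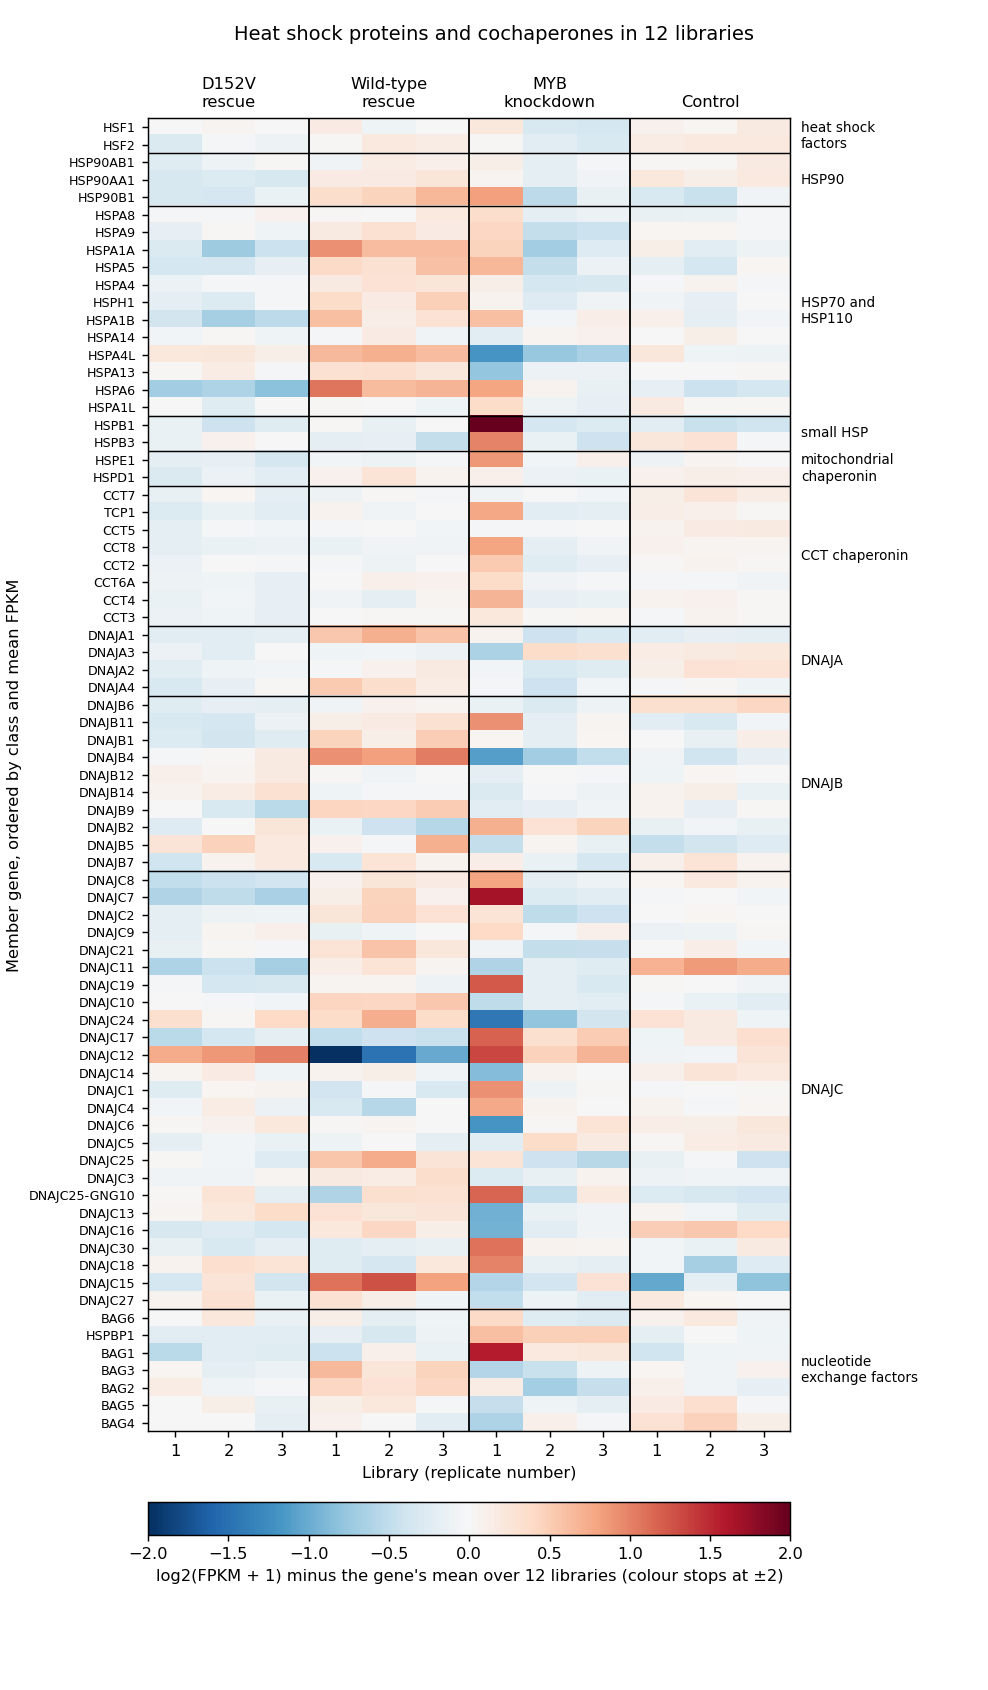
Each row is 1 of the 75 members, ordered by class and mean FPKM, and each column 1 library; colour gives log2(FPKM + 1) minus the gene's mean over the 12 libraries. The inducible genes HSPA1A, HSPA6, DNAJA1 and DNAJB4 are red in the 3 wild-type rescue libraries, and knockdown replicate 1 differs from the other knockdown libraries in many rows.

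**Figure D2:**
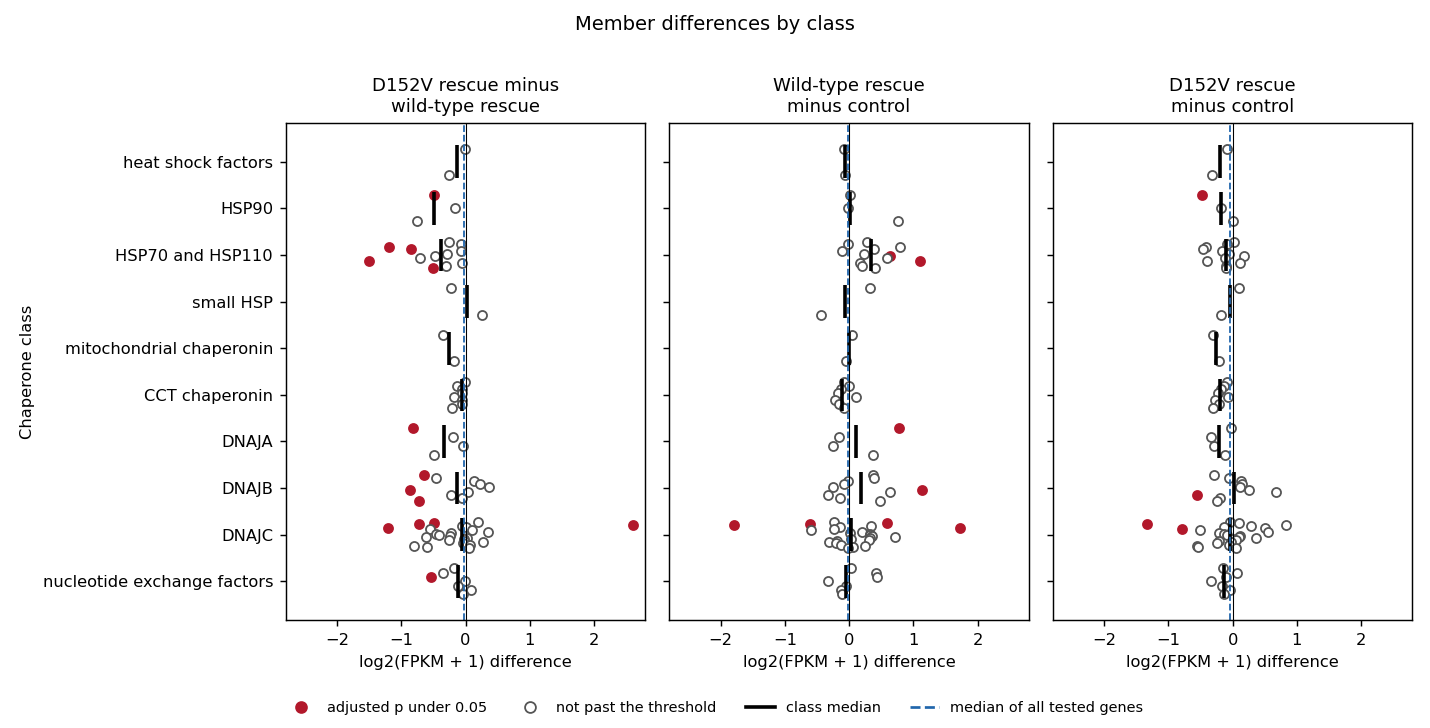
Points are the members' fitted differences in log2(FPKM + 1) in 3 comparisons, by class; filled points passed an adjusted p under 0.05, black bars are class medians and dashed lines the median of all tested genes. In D152V rescue minus wild-type rescue all 12 HSP70 and HSP110 members lie below 0, with a median of -0.39.

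HSF1 and HSF2, the factors that bind heat shock elements, passed in none of the 6 comparisons (limma, adjusted p under 0.05; 3 gene and comparison pairs were at an unadjusted p under 0.05). HSF1 had 39.7, 41.6 and 40.0 FPKM in the D152V rescue libraries and 44.8, 37.6 and 40.1 FPKM in the wild-type rescue libraries. In knockdown HSF1 had 46.5, 32.1 and 31.2 FPKM, and in control 42.6, 41.3 and 45.3 FPKM. In the knockdown group replicate 1 was the highest of all 12 libraries and the others the lowest pair. HSF2 stood at 14.4, 17.3 and 16.5 FPKM in the D152V rescue libraries, in the wild-type rescue libraries at 17.9, 20.5 and 19.9 FPKM, in the knockdown libraries at 17.9, 15.2 and 14.1 FPKM and in the control libraries at 19.8, 20.4 and 20.5 FPKM. The D152V rescue values of HSF2 lay below those of wild-type rescue and control, and the knockdown values below those of control. In knockdown against control, the differences were not past the threshold for HSF1 (log2 difference -0.25, adjusted p = 0.25) or for HSF2 (log2 difference -0.35, adjusted p = 0.0795). Without knockdown replicate 1 both passed as lower in knockdown, HSF1 with an adjusted p of 0.00522 (range over the alternatives 0.00274 to 0.48) and HSF2 with 0.00947 (range 0.00457 to 0.254).

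The inducible HSP70 genes had their lowest means in D152V rescue and their highest in wild-type rescue. HSPA1A and HSPA1B encode the main stress-induced HSP70 (ENSG00000204389, chromosome 6, 31815543 to 31817942 and ENSG00000204388, chromosome 6, 31827738 to 31830254; coordinates on GRCh38), and since their transcripts are almost identical, the split between them is uncertain. HSPA1A had 181, 134 and 163 FPKM in the D152V rescue libraries and 419, 340.0 and 338 FPKM in the wild-type rescue libraries. Its values were 302, 135 and 185 FPKM in knockdown and 238, 191 and 205 FPKM in control. Every D152V rescue library was below every wild-type rescue library, and the knockdown libraries spread widely, replicate 1 highest. HSPA1A fell in D152V rescue against wild-type rescue (log2 difference -1.20, SE 0.25, adjusted p = 0.00807). With D152V rescue, HSPA1B had 56.8, 46 and 50.4 FPKM, with wild-type rescue 112, 80.2 and 89.2 FPKM, in knockdown 112, 70.1 and 80.3 FPKM and in control 78.4, 64.2 and 70.1 FPKM. HSPA1B fell likewise (log2 difference -0.86, SE 0.18, adjusted p = 0.00942), again with no overlap of the rescue groups. It was also lower in D152V rescue than in knockdown (log2 difference -0.74, adjusted p = 0.015), a call lost without D152V rescue replicate 2, or with only the 6 libraries compared (adjusted p of 0.0626 to 0.0931). HSPA1A rose in wild-type rescue against knockdown (log2 difference 0.89, adjusted p = 0.0166), which was lost without wild-type rescue replicate 1, or with only the 6 libraries compared (adjusted p of 0.0622 to 0.0951).

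HSPA6, a strictly stress-inducible HSP70 (ENSG00000173110, chromosome 1, 161524540 to 161526894), was the scarcest of these genes and had the largest fall between the rescue lines. HSPA6 was measured at 0.503, 0.588 and 0.384 FPKM in D152V rescue and at 4.1, 2.78 and 2.89 FPKM in wild-type rescue. It was at 3.19, 1.56 and 1.19 FPKM in knockdown and at 1.19, 0.80 and 0.912 FPKM in control. The D152V rescue values all lay under 1 FPKM, and all 3 wild-type rescue values were above every other library but knockdown replicate 1. HSPA6 fell in D152V rescue against wild-type rescue (log2 difference -1.50, SE 0.22, adjusted p = 0.00103) and against knockdown (log2 difference -0.94, adjusted p = 0.0133), and rose in wild-type rescue against control (log2 difference 1.11, adjusted p = 0.00982). The call against knockdown was lost with only the 6 libraries compared (adjusted p = 0.0897). At these levels log2(FPKM + 1) understates the ratio, and HSPA6 passed the entry threshold in only 7 of the 12 libraries. The fitted differences between the rescue lines for these 3 genes stayed past the threshold in all 20 alternatives.

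**Figure D3:**
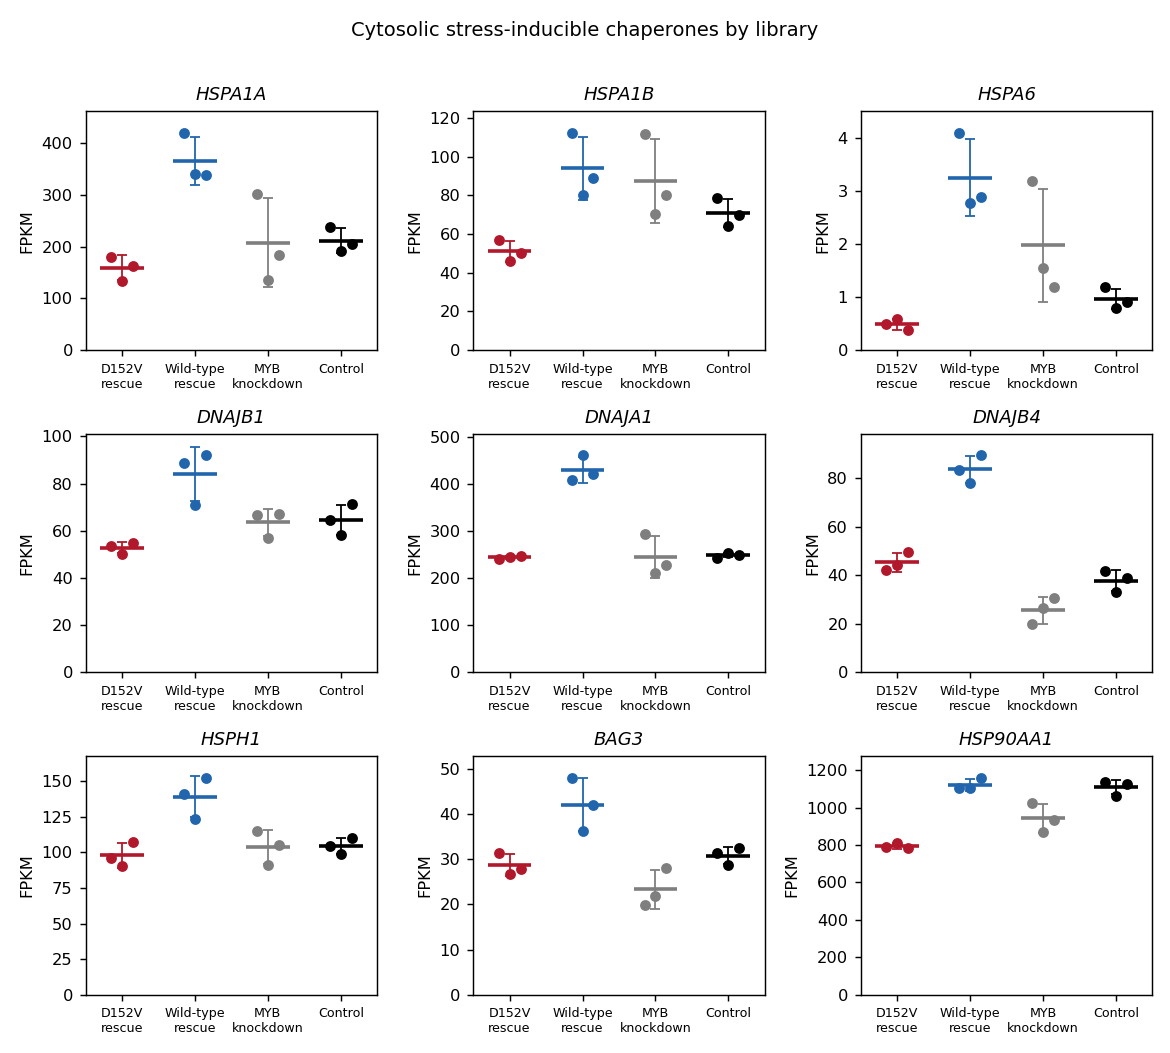
FPKM by group of 9 cytosolic chaperone genes, all of them called lower in D152V rescue than in wild-type rescue. Points are libraries, bars the means and whiskers the SD of 3 libraries. In every panel the 3 D152V rescue values lie below the 3 wild-type rescue values. The genes were chosen as called in that comparison, which favours such a separation.

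Over the class, all 12 HSP70 and HSP110 members had a fitted difference below 0 in D152V rescue against wild-type rescue (median -0.39), and 4 fell (HSPA6, HSPA1A, HSPA1B and HSPH1), where 6.19% of all tested genes fell. In wild-type rescue against control the median was 0.34, with 2 higher (HSPA6 and HSPA4L) and 0 lower, also at an unadjusted p under 0.05, where 5.04% of all genes rose. With knockdown replicate 1 left out, 9 of the 12 fell in D152V rescue against wild-type rescue and 9 rose in wild-type rescue against control, with 17.8% and 13.8% of all genes. The values of HSPH1 were 95.9, 90.5 and 107 FPKM with D152V rescue, 141, 124 and 153 FPKM with wild-type rescue, 115, 91.4 and 105 FPKM with knockdown and 105, 98.6 and 110.3 FPKM in control. HSPH1 encodes HSP105, a nucleotide exchange factor for HSP70 that also holds unfolded proteins. It fell in D152V rescue against wild-type rescue (log2 difference -0.50, SE 0.13, adjusted p = 0.0232), a call lost without D152V rescue replicate 1 or 2 or wild-type rescue replicate 1 or 3, or with the length trend removed (adjusted p of 0.0775 to 0.104). HSPA8, the constitutive cytosolic HSP70, was the most abundant member. HSPA8 had 3936, 3897 and 4239.5 FPKM in the D152V rescue libraries and 4032, 3964 and 4569 FPKM in the wild-type rescue libraries. The knockdown libraries had 5061, 3517 and 3687 FPKM and the control libraries 3578, 3636 and 3936 FPKM. The groups of HSPA8 overlapped, except that control lay below wild-type rescue, and no comparison passed. In the D152V rescue libraries HSPA9 had 389, 441 and 413 FPKM, with wild-type rescue 496, 541 and 491 FPKM, in knockdown 579, 315 and 324 FPKM and in control 450.4, 447 and 430.1 FPKM. HSPA9 is the mitochondrial HSP70, and its highest value was in knockdown replicate 1, beside the lowest values in the other knockdown libraries. No comparison of HSPA9 passed with all 12 libraries, whereas with knockdown replicate 1 left out 5 did, among them D152V rescue against wild-type rescue as lower (adjusted p = 0.00659; range over the alternatives 0.00659 to 0.676).

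HSPA4L, a protein of the HSP110 family, was lowest in knockdown and highest in wild-type rescue. HSPA4L was measured at 34.8, 35 and 32.5 FPKM in D152V rescue and at 47.3, 49.7 and 46.3 FPKM in wild-type rescue. It was at 12.6, 17.2 and 18.7 FPKM in knockdown and at 35.2, 28 and 27.9 FPKM in control. The knockdown libraries were below all others and the wild-type rescue libraries above all others. HSPA4L fell in knockdown against control (log2 difference -0.88, SE 0.15, adjusted p = 0.00738) and rose in wild-type rescue (log2 difference 1.52, SE 0.15, adjusted p = 5.89e-05) and D152V rescue (log2 difference 1.05, SE 0.15, adjusted p = 0.00102) against knockdown. It was also higher in wild-type rescue than in control (log2 difference 0.64, adjusted p = 0.0179). The call in knockdown against control was lost with only the 6 libraries compared (adjusted p = 0.14), and that in wild-type rescue against control without any single wild-type rescue library or control replicate 2 or 3 (adjusted p of 0.052 to 0.0795). HSPA4, a cytosolic HSP110, also rose in wild-type rescue against knockdown, with 240.3 ± 9.14 FPKM in wild-type rescue and 181 ± 34.2 FPKM in knockdown (SD, n = 3 each; log2 difference 0.42, adjusted p = 0.0269), a call lost without any single wild-type rescue library or knockdown replicate 2 or 3, or with only the 6 libraries compared or the length trend removed (adjusted p of 0.0535 to 0.356). So did HSPA13, with 20.3 ± 0.762 FPKM in wild-type rescue and 13.1 ± 3.38 FPKM in knockdown (SD, n = 3 each; log2 difference 0.63, adjusted p = 0.0121), a call lost with only the 6 libraries compared (adjusted p = 0.0946).

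Of the 3 HSP90 genes, HSP90AA1 fell in D152V rescue, and the others passed in no comparison. Without knockdown replicate 1, 2 of the 3 fell in D152V rescue against wild-type rescue, where 17.8% of all tested genes fell. HSP90AA1 (ENSG00000080824, chromosome 14, 102080742 to 102139749) encodes the stress-responsive cytosolic HSP90 and HSP90AB1 the constitutive one. HSP90AA1 had 789.7, 810.4 and 785 FPKM in the D152V rescue libraries and 1104, 1103 and 1161 FPKM in the wild-type rescue libraries. In knockdown HSP90AA1 had 1023, 871 and 934 FPKM, and in control 1137, 1065 and 1128 FPKM. All 3 D152V rescue values were below the other 9. HSP90AA1 fell in D152V rescue against wild-type rescue (log2 difference -0.50, SE 0.12, adjusted p = 0.0221) and against control (log2 difference -0.48, SE 0.12, adjusted p = 0.0318). The first call was lost without any single D152V rescue library or any single wild-type rescue library, or with quantile normalization (adjusted p of 0.0663 to 0.0815). The second was lost without any single D152V rescue library, wild-type rescue replicate 1 or 2 or any single control library, or with quantile normalization or no filter on low values (adjusted p of 0.051 to 0.469). The values of HSP90AB1 were 1517, 1680.3 and 1836 FPKM with D152V rescue, 1715, 1985 and 1922 FPKM with wild-type rescue, 1949, 1583 and 1775 FPKM with knockdown and 1831, 1833 and 2042 FPKM in control. The values of HSP90AB1 overlapped between groups; in D152V rescue against wild-type rescue the difference was -0.16 (SE 0.16, adjusted p = 0.607). Both promoters hold the 3-unit heat shock element.

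Small heat shock proteins bind unfolding clients without ATP, and 2 of the 8 rows named HSPB passed the entry threshold. HSPB1 stood at 318, 262 and 293 FPKM in the D152V rescue libraries, in the wild-type rescue libraries at 354, 314 and 351 FPKM, in the knockdown libraries at 2114, 273 and 287 FPKM and in the control libraries at 298, 256 and 263 FPKM. HSPB1 encodes HSP27, and its value in knockdown replicate 1 was far above the other 11 libraries, which ran from 256 to 354 FPKM. HSPB1 did not pass in knockdown against control (log2 difference 1.01, adjusted p = 0.252), and without that library the difference was 0.04 (adjusted p = 0.809; range over the alternatives 0.0878 to 0.809). HSPB3 was measured at 0.621, 0.878 and 0.769 FPKM in D152V rescue and at 0.554, 0.596 and 0.272 FPKM in wild-type rescue. It was at 2.52, 0.615 and 0.331 FPKM in knockdown and at 1.07, 1.17 and 0.736 FPKM in control. HSPB3 reached 1 FPKM in 3 libraries only, among them knockdown replicate 1. Counted from the top, the third of its 12 values, 1.07 FPKM, put it just inside the threshold with DNAJB7 (1.35 FPKM). HSPB8 (0.939 FPKM) and the read-through row HSPB2-C11orf52 (0.926 FPKM) were just outside. HSPB8 had 0.414, 0.218 and 0.454 FPKM in D152V rescue, 1.37, 0.939 and 1.97 FPKM in wild-type rescue, 0.536, 0.771 and 0.757 FPKM in knockdown and 0.53, 0.764 and 0.804 FPKM in control. HSPB2-C11orf52 had 0.143, 0.322 and 0.193 FPKM in D152V rescue, 0.567, 0.771 and 1.69 FPKM in wild-type rescue, 1.06, 0 and 0.784 FPKM in knockdown and 0.50, 0.053 and 0.926 FPKM in control. With D152V rescue, DNAJB7 had 0.56, 1.16 and 1.35 FPKM, with wild-type rescue 0.666, 1.49 and 1.16 FPKM, in knockdown 1.25, 0.883 and 0.607 FPKM and in control 1.21, 1.49 and 1.15 FPKM. DNAJB7, a J-domain gene, overlapped between all groups.

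DNAJA1, DNAJB4 and DNAJB1, cochaperones of the cytosol, fell in D152V rescue against wild-type rescue as the inducible HSP70 genes did. DNAJA1 (ENSG00000086061, chromosome 9, 33025273 to 33039907) pairs with HSPA8 in folding and import. DNAJA1 had 241, 244 and 246 FPKM in the D152V rescue libraries and 408, 461 and 420.4 FPKM in the wild-type rescue libraries. Its values were 295, 212 and 227 FPKM in knockdown and 244, 253 and 249.6 FPKM in control. The wild-type rescue libraries stood above all 9 others, which overlapped among themselves. DNAJA1 fell in D152V rescue against wild-type rescue (log2 difference -0.81, SE 0.13, adjusted p = 0.00186) and was higher in wild-type rescue than in knockdown (log2 difference 0.82, adjusted p = 0.00106) and in control (log2 difference 0.78, adjusted p = 0.00356). In the D152V rescue libraries DNAJB4 had 42.2, 44.1 and 49.5 FPKM, with wild-type rescue 83.3, 78 and 89.3 FPKM, in knockdown 19.8, 26.5 and 30.7 FPKM and in control 41.5, 32.9 and 38.7 FPKM. DNAJB4 (ENSG00000162616, chromosome 1, 77979175 to 78017964), a type II J protein of the cytosol, had its values in separate ranges in all 4 groups, with knockdown lowest, then control, D152V rescue and wild-type rescue. It fell in D152V rescue against wild-type rescue (log2 difference -0.87, SE 0.16, adjusted p = 0.00374) and in knockdown against control (log2 difference -0.55, adjusted p = 0.0448). It rose in wild-type rescue against knockdown (log2 difference 1.69, adjusted p = 4.79e-05) and against control (log2 difference 1.13, adjusted p = 0.00121), and in D152V rescue against knockdown (log2 difference 0.81, adjusted p = 0.00519). The call in knockdown against control was lost without any single D152V rescue library, any single wild-type rescue library or any single control library, or with only the 6 libraries compared, quantile normalization, median-ratio scaling or no filter on low values (adjusted p of 0.0586 to 0.217), and that in D152V rescue against knockdown with only the 6 libraries compared (adjusted p = 0.0677).

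DNAJB1 (ENSG00000132002, chromosome 19, 14514769 to 14560391), or HSP40, is the J protein induced together with HSP70 and works with it to dissolve aggregates. The values of DNAJB1 were 53.7, 50.1 and 54.8 FPKM with D152V rescue, 88.9, 70.9 and 92 FPKM with wild-type rescue, 66.7, 57.1 and 66.9 FPKM with knockdown and 64.5, 58.4 and 71.2 FPKM in control. The D152V rescue values were the 3 lowest of the 12. DNAJB1 fell in D152V rescue against wild-type rescue (log2 difference -0.65, SE 0.13, adjusted p = 0.00682) and rose in wild-type rescue against knockdown (log2 difference 0.39, adjusted p = 0.0349), the second a call lost without D152V rescue replicate 1 or 2, wild-type rescue replicate 1 or 3, knockdown replicate 2 or control replicate 1, or with only the 6 libraries compared, median-ratio scaling or no filter on low values (adjusted p of 0.0501 to 0.151). DNAJB6 was measured at 111, 117 and 114 FPKM in D152V rescue and at 125, 140.0 and 136 FPKM in wild-type rescue. It was at 119.6, 108 and 122 FPKM in knockdown and at 165, 164 and 175 FPKM in control. DNAJB6 keeps polyglutamine proteins from aggregating, and its control values stood above all 9 others. It fell in knockdown (log2 difference -0.52, SE 0.10, adjusted p = 0.0126) and in D152V rescue (log2 difference -0.55, SE 0.10, adjusted p = 0.00507) against control. The first call was lost without any single control library, or with only the 6 libraries compared (adjusted p of 0.0519 to 0.167).

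DNAJA2 and DNAJB2 also passed in knockdown against control. DNAJA2 had 28.5, 31.2 and 31.9 FPKM in the D152V rescue libraries and 32.2, 35.1 and 37.7 FPKM in the wild-type rescue libraries. The knockdown libraries had 31.7, 26.7 and 27.9 FPKM and the control libraries 36, 40.7 and 40.4 FPKM. DNAJA2, a J protein of the same type as DNAJA1, fell (log2 difference -0.43, adjusted p = 0.0349), a call lost without D152V rescue replicate 1 or 2, wild-type rescue replicate 2, knockdown replicate 2 or 3 or any single control library, or with only the 6 libraries compared (adjusted p of 0.051 to 0.194). DNAJB2 stood at 5.44, 6.73 and 8.08 FPKM in the D152V rescue libraries, in the wild-type rescue libraries at 6.02, 4.77 and 4.17 FPKM, in the knockdown libraries at 11.5, 8.37 and 9.46 FPKM and in the control libraries at 5.94, 6.42 and 5.94 FPKM. DNAJB2 carries ubiquitin-binding motifs and is best known in neurons. It rose in knockdown against control (log2 difference 0.59, adjusted p = 0.0454), a call lost without D152V rescue replicate 1 or 2, any single wild-type rescue library, knockdown replicate 1 or 3 or any single control library, or with only the 6 libraries compared, no filter on low values or the replicate block (adjusted p of 0.0512 to 0.173). It was lower in wild-type rescue than in knockdown (log2 difference -0.85, adjusted p = 0.00331). The scarce DNAJA4 rose in wild-type rescue against knockdown, with 2.38 ± 0.438 FPKM in wild-type rescue and 1.39 ± 0.341 FPKM in knockdown (SD, n = 3 each; log2 difference 0.50, adjusted p = 0.0279), a call lost without wild-type rescue replicate 1 or 2 or knockdown replicate 2, or with only the 6 libraries compared or no filter on low values (adjusted p of 0.0697 to 0.119).

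Of 8 chaperones and J proteins assigned to the ER, most had a fitted level below wild-type rescue in D152V rescue, and how many passed depended on knockdown replicate 1. These 8 members (HSPA5, HSP90B1, HSPA13, DNAJB9, DNAJB11, DNAJC1, DNAJC3 and DNAJC10) were grouped by location after their values were seen, so they are described by counts only. Other members can also lie in the ER, so the counts hold for these 8 alone. In D152V rescue against wild-type rescue 7 of the 8 lay below 0 (median -0.47) and 2 fell, DNAJB9 and DNAJC10 (6.19% of all genes fell). In wild-type rescue against control 7 of 8 lay above 0 (median 0.43) and 1 rose, DNAJC10 (5.04% of all genes rose). Without that library 6 of the 8 fell in D152V rescue against wild-type rescue and 7 rose in wild-type rescue against control, with 17.8% and 13.8% of all genes. HSPA5 had 177, 179 and 202 FPKM in the D152V rescue libraries and 297, 281 and 340.1 FPKM in the wild-type rescue libraries. In knockdown HSPA5 had 358, 162 and 209.7 FPKM, and in control 198, 177 and 233 FPKM. HSPA5 encodes BiP, the HSP70 of the ER and a sensor partner of the unfolded protein response. With D152V rescue, HSP90B1 had 362, 359 and 414 FPKM, with wild-type rescue 582, 619 and 719 FPKM, in knockdown 807, 317 and 409 FPKM and in control 368, 335 and 435 FPKM. HSP90B1 encodes GRP94, the HSP90 of the ER. Both genes hold the ER stress element, both had every D152V rescue value below every wild-type rescue value, and both were highest in knockdown replicate 1. Neither passed in D152V rescue against wild-type rescue (HSPA5, log2 difference -0.71, adjusted p = 0.078; HSP90B1, log2 difference -0.75, adjusted p = 0.107). With knockdown replicate 1 left out, their adjusted p values were 0.00127 for HSPA5 (range over the alternatives 0.000621 to 0.202) and 0.00104 for HSP90B1 (0.000666 to 0.253), with the same differences between the rescue lines.

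DNAJB9 was measured at 9.72, 7.57 and 6.34 FPKM in D152V rescue and at 13.3, 13.1 and 14.2 FPKM in wild-type rescue. It was at 8.1, 8.5 and 9.17 FPKM in knockdown and at 10.2, 8.43 and 9.75 FPKM in control. DNAJB9 (ENSG00000128590, chromosome 7, 108569874 to 108574850), or ERdj4, brings HSPA5 to the stress sensor IRE1. It fell in D152V rescue against wild-type rescue (log2 difference -0.73, SE 0.14, adjusted p = 0.00682) with no overlap, and rose in wild-type rescue against knockdown (log2 difference 0.60, adjusted p = 0.00868). The values of DNAJC10 were 52.2, 51.5 and 50.4 FPKM with D152V rescue, 70.7, 70.1 and 76.8 FPKM with wild-type rescue, 36.6, 45.5 and 45.1 FPKM with knockdown and 50.7, 47.8 and 44.9 FPKM in control. DNAJC10, or ERdj5, is a J protein that reduces disulfide bonds of proteins bound for degradation. Its wild-type rescue values stood above all others. DNAJC10 fell in D152V rescue against wild-type rescue (log2 difference -0.49, SE 0.11, adjusted p = 0.0133), a call lost without D152V rescue replicate 2 or 3 or wild-type rescue replicate 3, or with quantile normalization (adjusted p of 0.0512 to 0.055). A rise was called in wild-type rescue against knockdown (log2 difference 0.77, adjusted p = 0.000594) and control (log2 difference 0.59, adjusted p = 0.00632). DNAJC3, an ER J protein that also inhibits the kinase PERK, rose in wild-type rescue against knockdown (11 ± 0.893 FPKM in wild-type rescue and 8.46 ± 1.12 FPKM in knockdown, SD, n = 3 each; log2 difference 0.34, adjusted p = 0.0413), a call lost without any single D152V rescue library, any single wild-type rescue library, knockdown replicate 1 or 2 or any single control library, or with only the 6 libraries compared, quantile normalization, median-ratio scaling or the length trend removed (adjusted p of 0.0501 to 0.531).

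The DNAJC genes, the most varied J proteins, moved in both directions. DNAJC11 (ENSG00000007923, chromosome 1, 6634170 to 6701816), a protein of the mitochondrial outer membrane needed for cristae, was highest in control. DNAJC11 had 35.4, 40.2 and 34.1 FPKM in the D152V rescue libraries and 59.9, 65.9 and 56.7 FPKM in the wild-type rescue libraries. Its values were 35.4, 47.3 and 46.1 FPKM in knockdown and 89.2, 99.3 and 92.2 FPKM in control. The D152V rescue and knockdown values overlapped at the bottom, wild-type rescue lay between, and control stood above all. DNAJC11 fell in D152V rescue against wild-type rescue (log2 difference -0.72, SE 0.13, adjusted p = 0.00386) and against control (log2 difference -1.33, adjusted p = 0.000105), in wild-type rescue against control (log2 difference -0.62, adjusted p = 0.0126) and in knockdown against control (log2 difference -1.12, adjusted p = 0.00163). It rose in wild-type rescue against knockdown (log2 difference 0.50, adjusted p = 0.0124). The call in wild-type rescue against control was lost without wild-type rescue replicate 3 or control replicate 2 (adjusted p of 0.0562 to 0.0617). The call in knockdown against control was lost with only the 6 libraries compared (adjusted p = 0.103). The call in wild-type rescue against knockdown was lost without wild-type rescue replicate 2, or with only the 6 libraries compared (adjusted p of 0.0534 to 0.0921).

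DNAJC12 (ENSG00000108176, chromosome 10, 67796669 to 67838188), which assists the folding of aromatic amino acid hydroxylases such as phenylalanine hydroxylase, showed the largest difference of any member between the rescue lines and the opposite direction to the 13 members that fell there. In the D152V rescue libraries DNAJC12 had 32.9, 35.9 and 39.9 FPKM, with wild-type rescue 2.06, 6.26 and 9.07 FPKM, in knockdown 50.1, 26.9 and 31.3 FPKM and in control 18.3, 18.6 and 23.2 FPKM. The wild-type rescue values were the 3 lowest, control lay between, and the D152V rescue and knockdown values overlapped at the top. DNAJC12 rose in D152V rescue against wild-type rescue (log2 difference 2.61, SE 0.36, adjusted p = 0.000638). It was lower in wild-type rescue than in knockdown (log2 difference -2.56, adjusted p = 0.000541) and in control (log2 difference -1.78, adjusted p = 0.010). The values of DNAJC15 were 1.32, 2.54 and 1.29 FPKM with D152V rescue, 5.32, 6.15 and 4.21 FPKM with wild-type rescue, 0.977, 1.29 and 2.65 FPKM with knockdown and 0.463, 1.64 and 0.696 FPKM in control. DNAJC15, known as MCJ, sits in the mitochondrial inner membrane and restrains complex I of the respiratory chain. Its wild-type rescue values were the 3 highest. It fell in D152V rescue against wild-type rescue (log2 difference -1.21, SE 0.28, adjusted p = 0.0162), a call lost without D152V rescue replicate 1 or 3 or wild-type rescue replicate 1 or 2 (adjusted p of 0.0546 to 0.0739). It rose in wild-type rescue against knockdown (log2 difference 1.28, adjusted p = 0.00583) and control (log2 difference 1.72, adjusted p = 0.00327). The 8 members assigned to mitochondria, grouped after their values were seen, all lay below 0 in D152V rescue against wild-type rescue (median -0.26), and DNAJC11 and DNAJC15 fell, where 6.19% of all genes did. With knockdown replicate 1 left out, 4 of the 8 fell, with 17.8% of all genes.

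DNAJC24, DNAJC16 and DNAJC17 differed between knockdown and at least 1 other group. DNAJC24 was measured at 36.2, 29.4 and 38.1 FPKM in D152V rescue and at 37.5, 48.1 and 37.4 FPKM in wild-type rescue. It was at 10.1, 16.2 and 22.2 FPKM in knockdown and at 35.4, 32.7 and 27 FPKM in control. DNAJC24, also called DPH4, acts in the synthesis of diphthamide, a modified residue of a translation elongation factor. Its knockdown values were below all others, D152V rescue overlapped wild-type rescue and control, and wild-type rescue lay above control. It fell in knockdown against control (log2 difference -0.99, SE 0.23, adjusted p = 0.026), a call lost without any single control library, or with only the 6 libraries compared or no filter on low values (adjusted p of 0.0524 to 0.177). Its level rose in wild-type rescue (log2 difference 1.35, adjusted p = 0.00166) and D152V rescue (log2 difference 1.11, adjusted p = 0.00788) against knockdown. The call in D152V rescue was lost with only the 6 libraries compared (adjusted p = 0.0768). DNAJC16 had 3.96, 4.19 and 3.87 FPKM in the D152V rescue libraries and 6.17, 7.25 and 5.73 FPKM in the wild-type rescue libraries. The knockdown libraries had 2.23, 4.4 and 4.94 FPKM and the control libraries 7.75, 8.06 and 7.16 FPKM. DNAJC16 was low in D152V rescue and knockdown and higher in wild-type rescue and control. It fell against control in knockdown (log2 difference -0.88, adjusted p = 0.0232) and in D152V rescue (log2 difference -0.79, adjusted p = 0.0296). The call in knockdown was lost without any single control library, or with only the 6 libraries compared or no filter on low values (adjusted p of 0.0528 to 0.18), and that in D152V rescue without any single D152V rescue library or any single control library, or with no filter on low values (adjusted p of 0.0607 to 0.108). It rose in wild-type rescue against knockdown (log2 difference 0.65, adjusted p = 0.0264), a call lost without wild-type rescue replicate 1 or 2, or with only the 6 libraries compared, no filter on low values or the length trend removed (adjusted p of 0.0556 to 0.134).

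DNAJC17 stood at 18, 20.8 and 23.2 FPKM in the D152V rescue libraries, in the wild-type rescue libraries at 18.6, 19.8 and 19.2 FPKM, in the knockdown libraries at 61.6, 33.4 and 38.6 FPKM and in the control libraries at 25, 30.3 and 34 FPKM. DNAJC17 is a nuclear J protein with an RNA recognition motif, and its knockdown values stood above those of both rescues. It was lower than in knockdown in D152V rescue (log2 difference -1.03, adjusted p = 0.00576) and in wild-type rescue (log2 difference -1.12, adjusted p = 0.00198). The call in D152V rescue was lost with only the 6 libraries compared (adjusted p = 0.0697). The values of DNAJC4 were 19.4, 22.5 and 18.7 FPKM with D152V rescue, 16.3, 13.3 and 20.5 FPKM with wild-type rescue, 35, 21.5 and 20.2 FPKM with knockdown and 21.3, 19.7 and 21 FPKM in control. DNAJC4 was lower in wild-type rescue than in knockdown (log2 difference -0.56, adjusted p = 0.0472), a call lost without any single D152V rescue library, wild-type rescue replicate 1 or 2, knockdown replicate 1 or any single control library, or with only the 6 libraries compared, no filter on low values, the replicate block or the length trend removed (adjusted p of 0.0549 to 0.507). DNAJC8 had 129, 135 and 139 FPKM in the D152V rescue libraries and 193, 216 and 203 FPKM in the wild-type rescue libraries. In knockdown DNAJC8 had 315, 161 and 169 FPKM, and in control 187, 207 and 191 FPKM. DNAJC8, found with splicing factors, was the most abundant gene of the class, with its highest value in knockdown replicate 1. It did not pass in D152V rescue against wild-type rescue (log2 difference -0.60, adjusted p = 0.0958), although every D152V rescue value lay below every other value; with knockdown replicate 1 left out it did (adjusted p = 7.50e-05; range over the alternatives 7.50e-05 to 0.253). DNAJC2, DNAJC13, DNAJC21 and DNAJC25 also rose in wild-type rescue against knockdown, with log2 differences of 0.55 to 0.75. Their calls were lost in some alternatives: DNAJC2 without any single wild-type rescue library or knockdown replicate 2 or 3, or with only the 6 libraries compared or no filter on low values (adjusted p of 0.054 to 0.147); DNAJC13 without any single wild-type rescue library, or with only the 6 libraries compared, no filter on low values or the length trend removed (adjusted p of 0.0704 to 0.136); DNAJC21 with only the 6 libraries compared or the length trend removed (adjusted p of 0.0544 to 0.0981); DNAJC25 without wild-type rescue replicate 1 or 2 or knockdown replicate 3, or with only the 6 libraries compared (adjusted p of 0.0534 to 0.0963). DNAJC25 overlaps the read-through row DNAJC25-GNG10, so its value is uncertain.

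**Figure D4:**
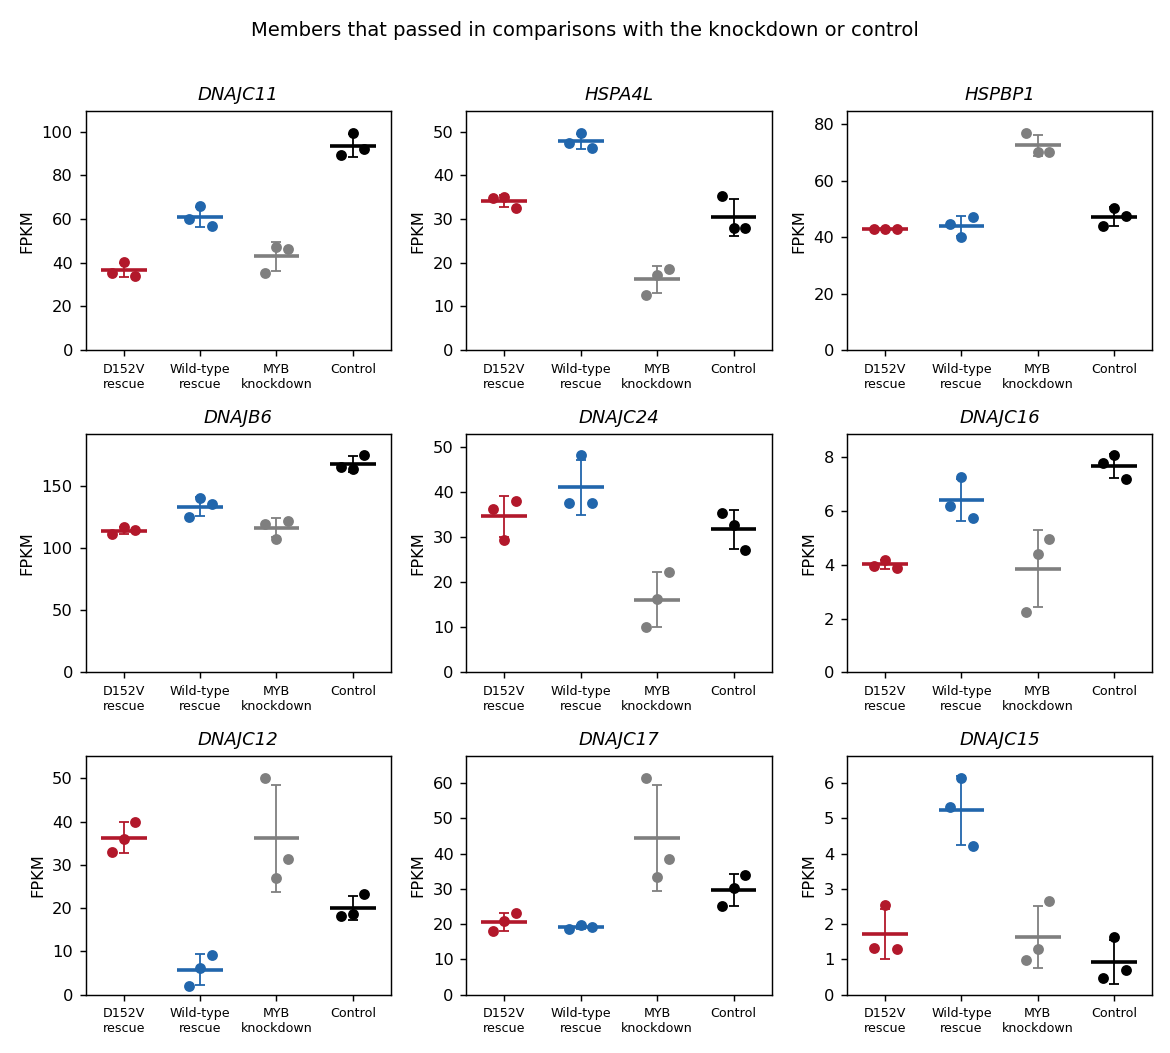
FPKM of 9 members that passed in comparisons with the knockdown or control; points are libraries, bars the means and whiskers the SD of 3 libraries. DNAJC11 is highest in control, HSPA4L and DNAJC24 are lowest in knockdown, and DNAJC12 is lowest in wild-type rescue.

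Of the 7 nucleotide exchange factors, HSPBP1 rose in knockdown. HSPBP1 was measured at 42.9, 42.8 and 42.9 FPKM in D152V rescue and at 44.6, 40.2 and 47.1 FPKM in wild-type rescue. It was at 76.9, 70.3 and 70.3 FPKM in knockdown and at 43.9, 50.4 and 47.5 FPKM in control. HSPBP1 releases ADP from HSP70 and curbs its activity. Its knockdown values stood above all 9 others, which ran from 40.2 to 50.4 FPKM. HSPBP1 rose in knockdown against control (log2 difference 0.61, SE 0.10, adjusted p = 0.00758) and was lower than in knockdown in D152V rescue (log2 difference -0.74, adjusted p = 0.000906) and wild-type rescue (log2 difference -0.71, adjusted p = 0.000589). The call in knockdown against control was lost without control replicate 1, or with only the 6 libraries compared (adjusted p of 0.0534 to 0.14). The values of BAG1 were 20.4, 26 and 25.4 FPKM with D152V rescue, 22.2, 32.6 and 27.3 FPKM with wild-type rescue, 91, 34.7 and 35.5 FPKM with knockdown and 22.7, 28.2 and 28.8 FPKM in control. BAG1, which links HSP70 to the proteasome, was also highest in knockdown, replicate 1 most of all. It was lower in D152V rescue than in knockdown (log2 difference -0.99, adjusted p = 0.0378), a call lost without any single D152V rescue library, wild-type rescue replicate 3 or any single control library, or with only the 6 libraries compared, no filter on low values or the replicate block (adjusted p of 0.0518 to 0.157).

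BAG3 had 31.4, 26.8 and 27.9 FPKM in the D152V rescue libraries and 48.1, 36.3 and 41.9 FPKM in the wild-type rescue libraries. Its values were 19.9, 21.9 and 28.1 FPKM in knockdown and 31.3, 28.8 and 32.4 FPKM in control. BAG3, induced by HSF1, guides clients of HSP70 and small heat shock proteins to autophagy. It fell in D152V rescue against wild-type rescue (log2 difference -0.53, SE 0.15, adjusted p = 0.0359), a call lost without any single D152V rescue library, wild-type rescue replicate 1 or 3 or any single control library, or with quantile normalization or median-ratio scaling (adjusted p of 0.0532 to 0.141). It rose in wild-type rescue against knockdown (log2 difference 0.83, adjusted p = 0.00181), and this call held in all 20 alternatives. BAG2, which inhibits the ubiquitin ligase CHIP, rose in the same comparison, with 35.9 ± 1.74 FPKM in wild-type rescue and 22.3 ± 7.25 FPKM in knockdown (SD, n = 3 each; log2 difference 0.71, adjusted p = 0.0121), a call lost with only the 6 libraries compared or the length trend removed (adjusted p of 0.0842 to 0.21). With D152V rescue, BAG6 had 194, 223 and 175 FPKM, with wild-type rescue 208, 170.4 and 181 FPKM, in knockdown 252, 162 and 157 FPKM and in control 205, 221 and 183 FPKM. BAG6, which escorts tail-anchored membrane proteins, was the most abundant of the class; its groups overlapped and no comparison passed. With all 12 libraries BAG4 and BAG5 passed in none of the 6 comparisons, and BAG4 passed in 1 with knockdown replicate 1 left out.

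The chaperonins were abundant and none of their 10 genes passed in any of the 6 comparisons (limma, adjusted p under 0.05; 4 gene and comparison pairs were at an unadjusted p under 0.05). HSPD1 and HSPE1 form the barrel and the lid of the mitochondrial chaperonin and share a bidirectional promoter on chromosome 2. HSPD1 was measured at 619, 695 and 654 FPKM in D152V rescue and at 802, 915 and 795 FPKM in wild-type rescue. It was at 813, 691 and 686 FPKM in knockdown and at 803, 815 and 807 FPKM in control. The D152V rescue values of HSPD1 were below those of wild-type rescue and control and overlapped those of knockdown. HSPE1 had 747, 763 and 668 FPKM in the D152V rescue libraries and 817, 797 and 840.2 FPKM in the wild-type rescue libraries. The knockdown libraries had 1557, 822 and 917 FPKM and the control libraries 795, 883 and 851 FPKM. HSPE1 in knockdown replicate 1 was far above the other 11. With that library left out, HSPD1 passed in 3 comparisons, as lower in D152V rescue than in wild-type rescue (adjusted p = 0.00405; range over the alternatives 0.00405 to 0.335) and control (adjusted p = 0.0104; range 0.00759 to 0.835) and as higher in wild-type rescue than in knockdown (adjusted p = 0.0165; range 0.0025 to 0.512), and HSPE1 passed as lower in D152V rescue than in knockdown (adjusted p = 0.0383; range 0.027 to 0.264). The CCT ring, which folds actin and tubulin, had 8 members at 302 to 1106 FPKM. In the D152V rescue libraries CCT7 had 653, 749 and 639 FPKM, with wild-type rescue 676, 738 and 709 FPKM, in knockdown 689, 733 and 701 FPKM and in control 789, 871 and 808 FPKM. CCT7 was the most abundant subunit, and its control values stood above all others. The values of TCP1 were 532, 589 and 552 FPKM with D152V rescue, 678, 615 and 651 FPKM with wild-type rescue, 1106, 555 and 568 FPKM with knockdown and 706, 695 and 656 FPKM in control. TCP1, the alpha subunit, had its highest value in knockdown replicate 1, as did CCT2, CCT3, CCT4, CCT6A and CCT8. In D152V rescue against control all 8 CCT differences were below 0 (median -0.20, all tested genes -0.04), with 0 called and 1 at an unadjusted p under 0.05. Without knockdown replicate 1, 4 of the 8 passed as lower, where the share of all tested genes that fell went from 4.94% to 16.4%. In D152V rescue against wild-type rescue all 8 were below 0 as well, with a median of -0.06, and 0 passed at an unadjusted p under 0.05, against 2 called lower with knockdown replicate 1 left out. Of all tested genes, 17.8% fell there without that library. The CCT median against knockdown was -0.21 in D152V rescue and -0.07 in wild-type rescue, and with quantile normalization it turned to 0.26 in D152V rescue and 0.39 in wild-type rescue.

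**Figure D5:**
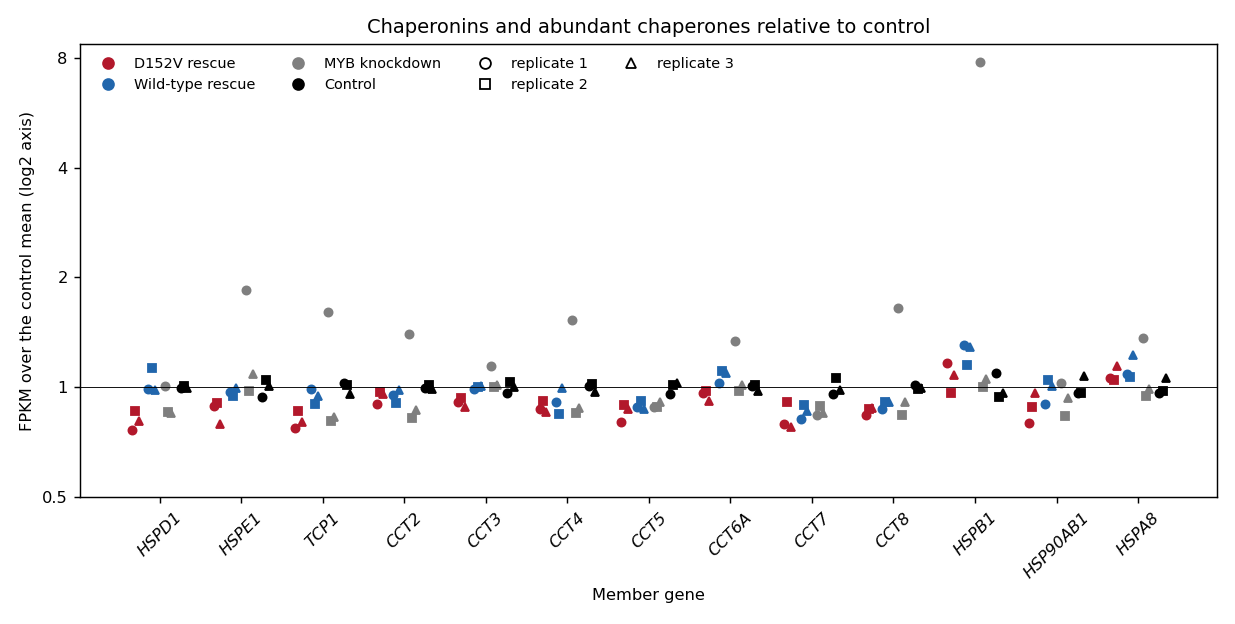
FPKM of the chaperonins, HSPB1, HSP90AB1 and HSPA8 in each library, divided by the control mean of the gene, on a log2 axis; colour gives the group and shape the replicate number. Knockdown replicate 1 is highest for HSPB1, HSPE1, TCP1 and CCT8.

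The wider pathway was read from 4 lists of genes that work with the members. Some genes stand in more than 1 list or are members, so the counts are not independent. Of 25 known targets of HSF1, 14 of them members, 10 fell and 0 rose in D152V rescue against wild-type rescue (median -0.38; 23 of 25 below 0; 0 higher at an unadjusted p under 0.05), where 6.19% of all tested genes fell and 5.96% rose. With knockdown replicate 1 left out, 16 fell and 0 rose, with 17.8% and 13.6% of all genes. Of the 10 that fell with all 12 libraries, 7 are members already counted above. Of the 11 targets that are no members, 3 fell: CRYAB, STIP1 and CHORDC1. CRYAB, the small heat shock protein alpha B-crystallin, averaged 12.8 ± 3.88 FPKM in D152V rescue and 175 ± 32.3 FPKM in wild-type rescue (SD, n = 3 each; log2 difference -3.70, adjusted p = 2.62e-06). In control it averaged 18.7 ± 2.1 FPKM (SD, n = 3), so that it was higher in wild-type rescue than in control (log2 difference 3.15, adjusted p = 2.25e-05). In wild-type rescue against control 3 targets rose (CRYAB, DNAJA1 and HSPA4L) and 0 fell (0 lower unadjusted), with 5.04% and 4.58% of all genes. Without knockdown replicate 1 the counts were 11 and 0, with 13.8% and 15.9%. In knockdown against control HSPA4L fell and no other target passed, where 3.94% of all genes rose and 7.38% fell. Leaving out knockdown replicate 1 changed this to 3 higher and 5 lower, with 7.26% and 12.9%.

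Of 18 cochaperones of HSP90, 3 fell and 1 rose in D152V rescue against wild-type rescue, with 6.19% of all genes lower and 5.96% higher. Those that fell were PTGES3, STIP1 and CHORDC1, and the last pair are also among the HSF1 targets counted above. Without knockdown replicate 1, 10 fell and 3 rose, with 17.8% and 13.6% of genes. PTGES3, or p23, which stabilises client-bound HSP90, averaged 568 ± 2.44 FPKM in D152V rescue and 848 ± 46.3 FPKM in wild-type rescue (SD, n = 3 each; log2 difference -0.58, adjusted p = 0.0143). STIP1, or HOP, which joins HSP70 to HSP90, averaged 180.4 ± 6.29 FPKM in D152V rescue and 235 ± 8.44 FPKM in wild-type rescue (SD, n = 3 each; log2 difference -0.38, adjusted p = 0.0295). UNC45A, a myosin chaperone, rose, with 35 ± 4.44 FPKM in D152V rescue and 20.8 ± 3.34 FPKM in wild-type rescue (SD, n = 3 each; log2 difference 0.73, adjusted p = 0.0474). Prefoldin hands actin and tubulin to CCT. Of 12 subunits of prefoldin and related proteins, 5 fell and 0 rose in wild-type rescue against knockdown (0 higher unadjusted). There 16.9% of all genes fell and 20.6% rose. With knockdown replicate 1 left out, 5 fell and 1 rose, with 19.9% and 25.3% of all genes. Between the rescue lines VBP1 passed, at 99.5 ± 3.06 FPKM in D152V rescue and 51.7 ± 3.22 FPKM in wild-type rescue (SD, n = 3 each; log2 difference 0.93, adjusted p = 0.00703). With that library left out, 3 of the 12 were lower and 1 higher between the rescue lines, with 17.8% and 13.6% of all genes. Of 19 other protein quality control genes, 7 fell and 2 rose in wild-type rescue against knockdown, with 16.9% and 20.6% of all genes. Without knockdown replicate 1, 8 fell and 5 rose, with 19.9% and 25.3% of all genes. In D152V rescue against wild-type rescue 0 of the 19 passed (1 higher and 2 lower at an unadjusted p under 0.05). Without that library 5 were lower and 0 higher, with 17.8% and 13.6% of all genes. SQSTM1, the autophagy receptor p62, rose in knockdown against control, at 122 ± 20.8 FPKM in knockdown and 51.6 ± 8.11 FPKM in control (SD, n = 3 each; log2 difference 1.23, adjusted p = 0.0047). The values of several prefoldin and quality control genes in knockdown spread widely with replicate 1 in the group, for example 464 ± 259 FPKM for PFDN6 (SD, n = 3).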

How the data were processed

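RNA-seq of 12 K-562 libraries was analysed from the table of FPKM values that the authors deposited, 1 row per Ensembl gene. The submitters' processing notes name Cufflinks 2.2.1, TopHat2 2.0.13, Trimmomatic 0.33 and bcl2fastq 2.17.1.14, and GRCh38 as the build. Per the labels' protocols, the libraries were stranded, poly(A)-selected and paired-end. Which annotation was used, whether strand was, and how reads shared by copies were treated is not stated there. FPKM corrects for length and total, so the depth is unknown and no counting error is given.

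The values were put on the scale log2(FPKM + 1), and 1 fit with 4 group means and a variance trend took in all 12 libraries (limma 3.58.1, R 4.3.3). It covered the 13393 genes at 1 FPKM or more in at least 3 libraries, and p-values were adjusted over all of these by Benjamini-Hochberg. A call is an adjusted p under 0.05. The procedure was tested on simulated data. FPKM is relative to each library's total, so a few abundant genes can shift the rest.

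Members and lists were chosen with earlier results of these data known. Values in each library are given for the called members with the smallest adjusted p (at most 6 per direction and comparison), a fixed core, the most abundant member of each class and those nearest the threshold. DNAJA4, DNAJC2, DNAJC13, DNAJC21, DNAJC25, HSPA4, HSPA13 and BAG2 are given more briefly. Promoters and coordinates come from RefSeq (GRCh38.p14).

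Same-numbered libraries of the D152V and wild-type rescues deviated together from their group means (r = 0.1694, 0.1529 and 0.2325 over the tested genes). Only there were all 3 r above 0.1, and only there were the numbers read as pairing the libraries. All 3 r were above 0 also in knockdown against control (0.03759, 0.1321 and 0.0899). The same held for wild-type rescue against knockdown (0.004605, 0.02954 and 0.1316) and against control (0.02446, 0.05092 and 0.3492). Results were recomputed without the filter, with a pseudocount of 0.1, quantile normalization, median-ratio scaling, a replicate block, only the 6 libraries compared, or 1 library left out at a time. After seeing the data, library weights and a correction for the slope on transcript length within libraries were added.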

Additional observations from a re-analysis of the deposited data

Results flagged for a closer look

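In 14 members (18.7%), against 12.1% of all tested genes, the change from knockdown differed between the D152V and the wild-type rescue lines. Both changes are measured from the same 3 knockdown libraries, so their difference equals the fitted difference of D152V rescue minus wild-type rescue in log2(FPKM + 1), and its limma test, adjusted over all tested genes, passed for each of them. The cause was not tested.

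DNAJC12 was the only one with a higher change in D152V rescue, at 2.61. Among the HSP70 and HSP110 genes the difference was -1.5 for HSPA6, -1.2 for HSPA1A, -0.856 for HSPA1B and -0.502 for HSPH1, and for HSP90AA1 it was -0.497. Among the J-domain genes of the cytosol it was -0.87 for DNAJB4, -0.812 for DNAJA1 and -0.649 for DNAJB1. In the ER it was -0.726 for DNAJB9 and -0.489 for DNAJC10. In mitochondria it was -1.21 for DNAJC15 and -0.719 for DNAJC11. For the exchange factor BAG3 it was -0.532.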

How the results depend on the processing

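Of the 70 calls of a member in a comparison, 31 held in all 20 alternatives and 48 in every alternative that kept all 12 libraries; none reversed its direction. Counts of called members moved more. Library weights gave 31 for D152V rescue against wild-type rescue, 33 for wild-type rescue against control, 24 for D152V rescue against control, 23 for D152V rescue against knockdown and 20 for knockdown against control. Of all tested genes they called 32.6%, 30.5%, 33.9%, 38.2% and 26.7% in these comparisons. In the same order, only the 6 libraries compared gave 28, 25, 20, 2 and 0 (in the last, 3 higher and 9 lower at an unadjusted p under 0.05), and 12 for wild-type rescue against knockdown. The shares of all tested genes were 24.5%, 26.2%, 26.7%, 4.09% and 0.119%, and 12.6% for wild-type rescue against knockdown. With quantile normalization the counts were 16 for wild-type rescue against control and 20 for D152V rescue against knockdown. They were 19 for knockdown against control and 45 for wild-type rescue against knockdown. In that order, 11.99%, 28.6%, 14.6% and 39.6% of all tested genes were called with quantile normalization. Without the filter the counts were 2 for D152V rescue against control and 5 for knockdown against control, with 4.48% and 2.57% of all genes. With the length trend removed the count was 13 for wild-type rescue against control, with 12.3% of all genes. Leaving out 1 library gave 10 to 34 for D152V rescue against wild-type rescue, 16 to 41 for wild-type rescue against knockdown, 6 to 31 for wild-type rescue against control, 2 to 19 for D152V rescue against control, 6 to 20 for D152V rescue against knockdown and 2 to 19 for knockdown against control, each highest without knockdown replicate 1. In that order the shares of all tested genes called began with 7.62% to 31.4%, 23.8% to 45.2% and 5.09% to 29.7%. They went on with 5.41% to 27.7%, 12.2% to 32.8% and 1.29% to 20.1%. The cause was not tested.

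The replicate block gave 15 members in D152V rescue against wild-type rescue, where the numbers pair the libraries, and 13 in wild-type rescue against control. Of all tested genes it called 13.97% and 11.2% in these comparisons. The block gave 28 in wild-type rescue against knockdown, 7 in D152V rescue against knockdown, 5 in D152V rescue against control and 8 in knockdown against control. The shares of all tested genes were 39.9%, 27.4%, 11.2% and 12.8% in that order. The block ended 3 calls: DNAJC4 in wild-type rescue against knockdown (adjusted p = 0.0549), DNAJB2 in knockdown against control (0.0571) and BAG1 in D152V rescue against knockdown (0.0585). None of these was in D152V rescue against wild-type rescue. The adjusted p values given with the log2 differences of that comparison come from the fit without the block. In comparisons with control or knockdown the correlations of same-numbered libraries were not all above 0.1. In D152V rescue against control, for example, they were r = 0.1589, -0.04206 and 0.1775.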

Other observations

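Summed over a class, the DNAJB genes had 322 ± 12.3 FPKM in D152V rescue, 435 ± 21.1 FPKM in wild-type rescue, 345 ± 44.3 FPKM in knockdown and 379.7 ± 19.6 FPKM in control (SD, n = 3 each). The DNAJA genes summed to 319 ± 7.01 FPKM in D152V rescue, 511 ± 29.0 FPKM in wild-type rescue, 324 ± 30.2 FPKM in knockdown and 342 ± 7.75 FPKM in control (SD, n = 3 each). Both sums are carried by a few abundant genes and, like the single values, were not tested as scores.

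Many chaperone genes have processed pseudogenes elsewhere in the genome. Of the 75 members, 24 had pseudogene rows by name in the same table, 121 rows in all, and in none of the 24 did any such row have a mean above 5% of the mean of the member. The highest share was 0.880% for DNAJC19, and for HSPA8, which has many copies, it was 0.0225%.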
